A study of Mus musculus with 5 samples.

Results

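Transcripts of the nucleolar ribosome assembly machinery were examined in splenic natural killer (NK) cells of mice, with and without the transcription factor gene Myc. The genes were found by symbol in a deposited table of 13004 genes. In all, 32 symbols began with Nop, Utp, Rrp or Polr1 or were of the Noc2l kind, and 19 further genes were named, such as Ncl, Npm1, Fbl and Pes1, which gave 51 genes. By known role they fell into 5 RNA polymerase I subunits, 7 proteins of small nucleolar ribonucleoproteins (snoRNPs), 19 small subunit factors, 16 large subunit factors and 4 multifunctional nucleolar proteins.

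All libraries came from live CD3-, NK1.1+, DX5+ cells sorted from spleens of 8-week-old C57BL/6 mice. The 3 control libraries (control 1, 2 and 3) came from Mycf/f mice, whose Myc alleles are flanked by loxP sites, with no Cre named. The 2 MycKO libraries (MycKO 5 and 6) came from Mycdelta/delta/Ncr1Cre mice, in which Cre recombinase under control of the NK receptor gene Ncr1 removes Myc. Presence of Cre and absence of Myc thus went together and cannot be told apart. Nothing in the labels ties each library to its own animal. The p-values therefore measure only the spread between these libraries, which may be technical.

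Ribosomes are assembled largely in the nucleolus. RNA polymerase I transcribes the long ribosomal RNA precursor, box C/D and box H/ACA snoRNPs guide its methylation and pseudouridylation, and the small subunit processome and a series of large subunit particles fold, trim and export the ribosomal subunits. MYC is known as an activator of many of these genes in growing cells, and it binds DNA at the E-box CACGTG. Splenic NK cells of an unchallenged mouse mostly rest, and resting lymphocytes are known to make few ribosomes.

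Values are RPKM, reads scaled to transcript length and library size, so that levels can be compared between genes. Listed genes held 5451728 reads in MycKO 5 and 13337084 to 17610826 in the other libraries. The targeted gene, Myc, was at 13.0, 23.0 and 21.2 RPKM in controls 1, 2 and 3, against 12.5 and 8.70 RPKM in MycKO 5 and 6. Both MycKO libraries lay below every control. limma gave a log2 fold change of -0.77 (SE 0.28) and an adjusted p of 0.297. The value sums all exons, so it does not measure the deleted part alone. All 10 NK cell markers were detected in every library, with a sum of 11942 to 13950 RPKM in controls and of 9013 and 10733 RPKM in MycKO 5 and 6, and for 6 of the 10 both MycKO libraries lay below all controls. For 12 of 13 myeloid, 6 of 8 T cell and 6 of 8 B cell markers, both MycKO libraries lay above all controls. Among the 11190 genes with at least 1 RPKM in 2 or more libraries, both lay above for 18.8% and below for 10.4%. The myeloid markers (13 of 14 listed, Mpo at 0 in the controls) summed to 233 to 430 RPKM in controls and to 1901 and 1313 RPKM in MycKO 5 and 6. T cell markers (8 of 8, Cd5 or Cd6 at 0 in some controls) summed to 38.1 to 61.2 RPKM against 144.9 and 202, and B cell markers (8 of 8, none at 0) to 86.4 to 140.3 RPKM against 346.2 and 682.5. In bulk RNA, a change in the share of cells of a type and a change of RNA per cell cannot be told apart. The part of these cells in the values below was not tested.

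The E-box was searched for in the promoters of these genes. RefSeq promoters on GRCm38.p6, from 250 bases before to 50 bases after a start site, were matched by gene identifier for 43 of the 51 genes. CACGTG, which reads the same on both strands, stood in 9 of them (20.9%), against 11.5% of 10384 genes of the deposited table and 8.09% of 27025 genes of the RefSeq table. The related motif CACGCG, searched as CACGCG or CGCGTG and sharing no full match with CACGTG, stood in 16 (37.2%), against 19.3% and 10.5%. A gene was counted if any of its promoters held the motif. By role, CACGTG stood in 6 of 15 small subunit genes, 2 of 14 large subunit genes and 1 of 3 genes of multifunctional proteins. It stood in none of 5 RNA polymerase I and 6 snoRNP genes. The 9 sites are shown because they are the matches to the binding motif of the factor that was deleted. They are written 5′ to 3′ on the strand of the gene, with the motif in capitals, and the sites of Utp20 and Mybbp1a run to the end of the promoter window.
Nop2: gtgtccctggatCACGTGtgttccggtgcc
Rrp7a: gtgcctgtgcacCACGTGtcctggaactgg
Utp20: cggcactaactaCACGTGaggaaaa
Wdr43: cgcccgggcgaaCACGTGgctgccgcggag
Mybbp1a: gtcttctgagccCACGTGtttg
Pes1: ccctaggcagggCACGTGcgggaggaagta
Tsr1: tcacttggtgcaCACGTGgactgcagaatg
Utp14b: cgcgggcgcgggCACGTGggtggggtcgtc
Utp18: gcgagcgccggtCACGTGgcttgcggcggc

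The first 4 of these 9 genes had both MycKO libraries below all controls, as did 10.4% of the 11190 genes tested. This was looked at after the values were seen, and in Utp20, Wdr43 and Rrp7a the groups were narrowly separated. The sites of these 4 genes lay at chr6:125131811-125131840 (Nop2, plus strand), chr15:83122992-83123021 (Rrp7a, minus strand), chr10:88826765-88826789 (Utp20, minus strand) and chr17:71616220-71616249 (Wdr43, plus strand). The motif began 60 bases before the start site in Nop2 and 208 before it in Rrp7a, and after the start site in Utp20 and Wdr43. A match to letters is not a measured binding site.

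No gene of the machinery passed the test for a difference between MycKO and control. The test was limma on log2(RPKM + 1) over all genes that reached 1 RPKM in 2 or more libraries, as all 51 genes did. At an adjusted p under 0.05, 0 of 51 were called, against 1.34% of 11190 genes tested. The smallest limma adjusted p among them was 0.166, for Nop14. At an unadjusted p under 0.05, 4 genes were higher in MycKO and 0 lower, where 9.83% of all genes were higher and 3.35% lower at that level. With limma-voom on the reads behind the RPKM values, 0 of 51 had an adjusted p under 0.05, against 2.07% of all genes tested. At an unadjusted p under 0.05 limma-voom gave 3 of 51, and the share of all genes at that level was not counted. In the authors' deposited table none (0 of 51) had an adjusted p under 0.05, against 3.4% of its 13004 genes, and the smallest was 0.205, for Heatr1.

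The log2 fold changes of the 51 genes, all given as MycKO minus control on the log2(RPKM + 1) scale, ran from -0.54 (Polr1e) to 0.60 (Nop14), with a median of 0.04. The median of all genes tested was 0.05. In MycKO 29 genes were higher and 22 lower, and under median-of-ratios scaling 24 were higher, with medians of -0.01 for these genes and -0.00086 for all genes tested. For 42 of the 51 (82.35%) the 95% interval of the fold change lay wholly within 1 log2 unit of 0 in either direction. Of all genes tested, 65.23% had such an interval. A fall of 1 log2 unit lay outside the interval of 45 of the 51 (88.24%), a share close to the 87.87% of all genes tested. Genes of low level, such as Utp14b (mean 0.807 RPKM in controls), cannot fall by 1 unit on this scale, which limits both shares. Both MycKO libraries lay above all controls for 6 genes (18.8% of all genes tested did) and below them for 5 (10.4% did).

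**Figure D1:**
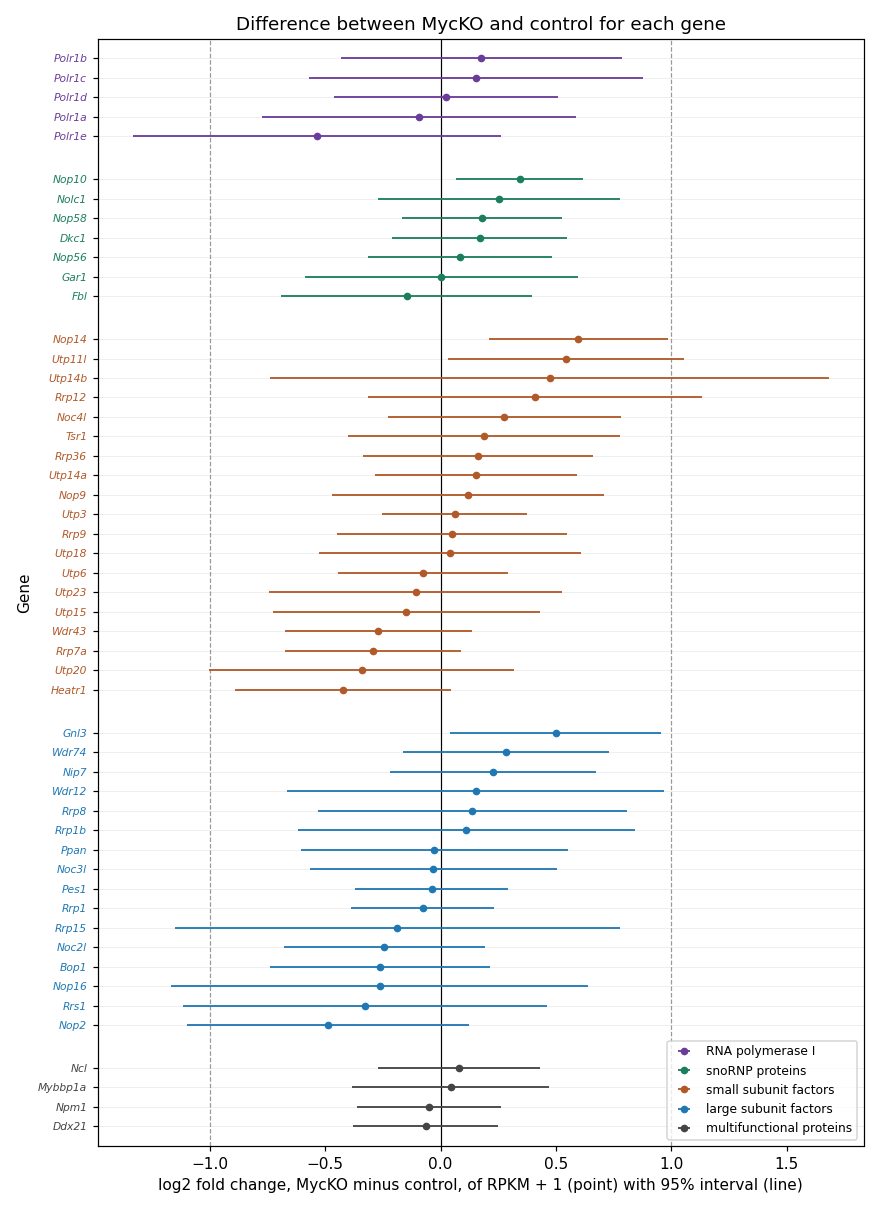
Log2 fold change (MycKO minus control, of RPKM + 1) on the x axis for each of the 51 genes on the y axis, grouped and coloured by role, with points for the limma estimate and lines for its 95% interval; dashed lines mark 1 log2 unit. Estimates lie between -0.54 and 0.60, and 42 intervals lie within the dashed lines.

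The 5 RNA polymerase I subunits found by symbol showed no shared direction. Their median log2 fold change was 0.02, with 3 of 5 higher, where 57.1% of all genes tested were higher. Both MycKO libraries lay above all controls for 0 of the 5 (18.8% of all genes tested did) and below them for 0 (10.4% did). Subunits listed under other symbols, such as Znrd1, are counted below with the other genes of ribosome synthesis. Polr1d, a subunit shared with RNA polymerase III (Entrez 20018; chromosome 5, 147076715 to 147111361 on GRCm38.p6), had the highest level. It was at 54.4, 65.3 and 60.8 RPKM in controls 1, 2 and 3, against 78.2 and 47.5 RPKM in MycKO 5 and 6, so the MycKO libraries held both its highest and its lowest value. The log2 fold change of 0.02 (95% interval -0.46 to 0.51) turned negative with other scalings and without MycKO 5, at -0.33. Polr1c, also shared with RNA polymerase III, was at 15.2, 25.3 and 34.9 RPKM in the controls, against 24.4 and 29.1 RPKM in MycKO.

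The other 3 of the 5 subunits belong to RNA polymerase I alone and were less abundant. Polr1a, the largest catalytic subunit, was at 7.18, 6.87 and 4.37 RPKM in controls, against 6.42 and 4.83 RPKM in MycKO, and these ranges overlapped. Polr1b, the second catalytic subunit, was at 4.77, 4.86 and 5.88 RPKM in controls, against 6.97 and 5.06 RPKM in MycKO, a log2 fold change of 0.18 with a limma adjusted p of 0.874. Polr1e, which takes part in initiation and elongation, was the lowest estimate among the 51 genes. It was at 2.79, 3.77 and 3.73 RPKM in controls 1, 2 and 3, against 2.88 and 1.38 RPKM in MycKO 5 and 6, and only MycKO 6 lay outside the controls. Its log2 fold change of -0.54 (95% interval -1.34 to 0.26) had a limma adjusted p of 0.613, and it was -0.18 without MycKO 6, -0.89 without MycKO 5 and -1.03 in limma-voom. Without MycKO 5 the median of the 5 subunits was -0.27.

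Proteins of snoRNPs had the highest median among the 5 role groups, at 0.17. In MycKO 6 of 7 were higher (57.1% of all genes tested were), and 0 passed the test (1.34% did). For 6 of the 7 the highest value of all libraries was in MycKO 5, as for 2678 of the 11190 genes tested. Without MycKO 5 the median was 0.02, and without MycKO 6 it was 0.32. Of the box H/ACA proteins, Nop10, the small scaffold of the pseudouridine synthase (Entrez 66181; chromosome 2, 112261926 to 112262898), was at 58.1, 52.7 and 59.7 RPKM in controls 1, 2 and 3, against 75.7 and 68.9 RPKM in MycKO 5 and 6. Both MycKO libraries lay above all controls. The log2 fold change was 0.34 (SE 0.12; 95% interval 0.07 to 0.62), with an unadjusted p of 0.0209 and a limma adjusted p of 0.26. Dkc1, the pseudouridine synthase dyskerin itself, was at 21.8, 28.6 and 24.6 RPKM in controls, against 29.8 and 26.5 RPKM in MycKO (log2 fold change 0.17, and 0.078 to 0.27 without each library in turn). Gar1, which helps to release the modified RNA, was at 16.4, 13.8 and 10.9 RPKM in controls, against 16.9 and 10.8 RPKM in MycKO, so both ranges were nearly the same.

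Box C/D proteins overlapped between the groups. The methyltransferase fibrillarin, Fbl, had the widest range among controls, at 56.6, 76.0 and 42.4 RPKM, and was at 56.3 and 46.4 RPKM in MycKO. Its log2 fold change was -0.15, and without control 2, its highest library, it was 0.06. The core proteins Nop56 and Nop58 were at 46.7, 51.6 and 57.3 RPKM and at 38.3, 47.4 and 44.9 RPKM in controls. In MycKO 5 and 6, Nop56 was at 65.0 and 46.2 RPKM and Nop58 at 54.3 and 44.7 RPKM. In both genes MycKO 5 held the highest value, and MycKO 6 lay close to control 1 (Nop56) or control 3 (Nop58). Nolc1, a chaperone of snoRNPs, had the same pattern, at 15.0, 17.1 and 11.9 RPKM in controls, against 20.7 and 14.8 RPKM in MycKO.

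**Figure D2:**
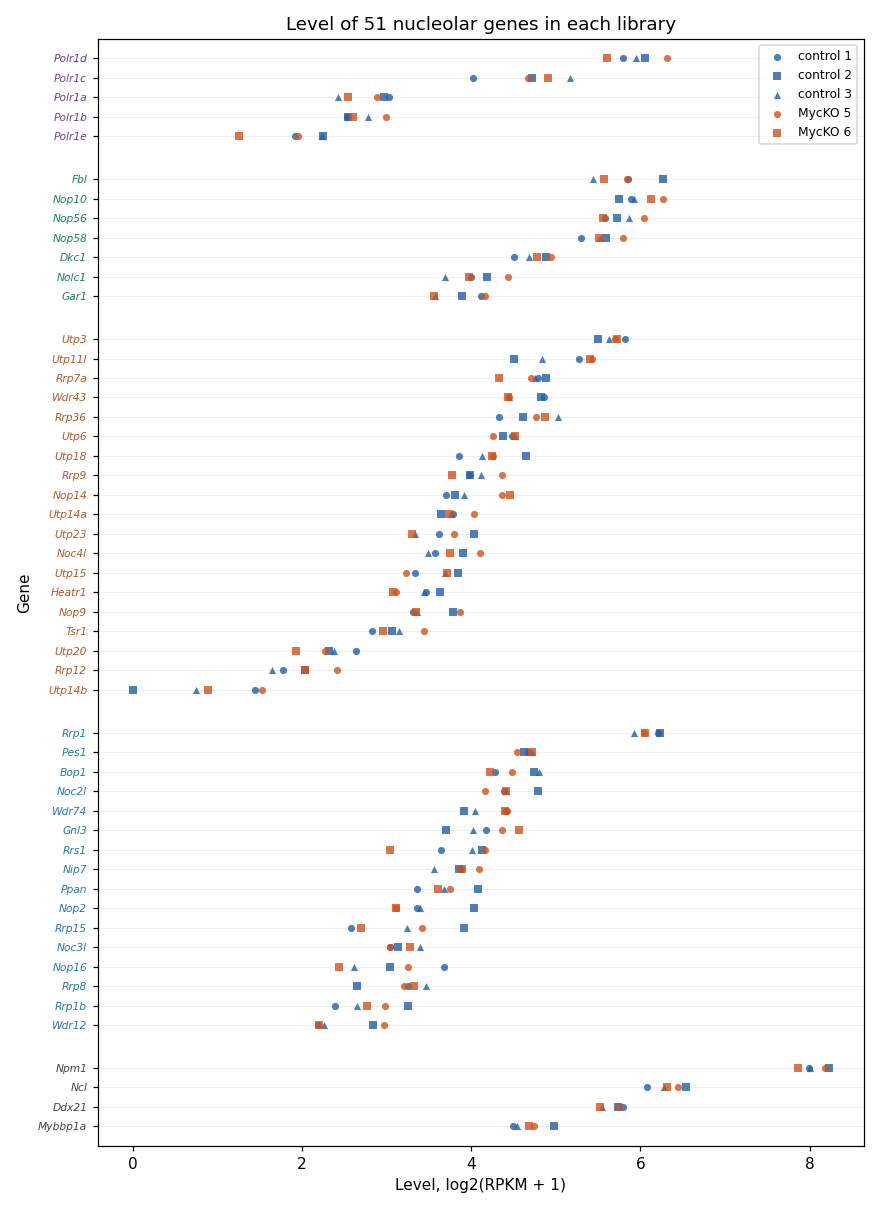
Level of each of the 51 genes (y axis, grouped and coloured by role) in each library as log2(RPKM + 1) on the x axis; blue points are the 3 controls and orange points the 2 MycKO libraries. In 40 of the 51 genes the orange and blue points overlap, and the groups overlap in 7929 of the 11190 genes tested. Npm1 stands highest in every library.

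Small subunit factors, among them the gene with the highest log2 fold change of the 51, showed no common direction. Their median was 0.06, with 12 of 19 higher, where 57.1% of all genes tested were higher. Both MycKO libraries lay above all controls for 3 (18.8% of all genes tested did) and below them for 4 (10.4% did). Nop14, a processome protein needed to make small subunit RNA (Entrez 75416; chromosome 5, 34638536 to 34660148), was at 12.1, 13.1 and 14.1 RPKM in controls 1, 2 and 3, against 19.6 and 20.9 RPKM in MycKO 5 and 6. The groups stood well apart, with an SD of 1.02 RPKM among controls and 0.945 among MycKO. The log2 fold change was 0.60 (SE 0.17; 95% interval 0.21 to 0.98), with an unadjusted p of 0.00792 and a limma adjusted p of 0.166, and it lay at 0.54 to 0.65 without each library in turn. Utp11l, a protein of the U3 snoRNP particle, was at 37.6, 21.7 and 27.5 RPKM in controls, against 41.9 and 41.4 RPKM in MycKO. Both MycKO libraries were higher, by little over control 1, and the log2 fold change of 0.54 had a limma adjusted p of 0.348. Rrp12, which acts in export of the subunits, was at 2.41, 3.10 and 2.12 RPKM in controls, against 4.33 and 3.10 RPKM in MycKO, where MycKO 6 barely exceeded control 2.

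Heatr1 had the lowest log2 fold change of the small subunit factors. It encodes a large scaffold protein of the processome that is also needed for transcription of ribosomal DNA (Entrez 217995; chromosome 13, 12395375 to 12438893). It was at 10.1, 11.4 and 9.85 RPKM in controls 1, 2 and 3, against 7.63 and 7.42 RPKM in MycKO 5 and 6, a clear gap in level. The log2 fold change was -0.42 (SE 0.20; 95% interval -0.89 to 0.04), with a limma adjusted p of 0.432, and the authors' deposited table gave -0.54. The other 3 genes with both MycKO libraries below all controls carried the E-boxes shown above, and they were separated by smaller gaps. Utp20, another large scaffold protein, was at 5.20, 3.99 and 4.22 RPKM in controls, against 3.84 and 2.82 RPKM in MycKO. Wdr43 was at 28.1, 27.4 and 20.8 RPKM in controls, against 20.8 and 20.7 RPKM in MycKO, so control 3 and the MycKO libraries were nearly level. Rrp7a was at 26.6, 28.6 and 25.9 RPKM in controls, against 25.1 and 19.1 RPKM in MycKO, where MycKO 6 alone stood clearly apart. Their log2 fold changes were -0.34, -0.27 and -0.29, with limma adjusted p-values of 0.714, 0.613 and 0.539.

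The most abundant small subunit factor was Utp3, with 55.6, 44.0 and 48.3 RPKM in controls, against 50.8 and 51.7 RPKM in MycKO. Its log2 fold change of 0.06 had a narrow 95% interval, from -0.25 to 0.38. The remaining processome genes, among them Utp6, Utp15, Utp18, Rrp9, Noc4l, Nop9 and Tsr1, overlapped between the groups. Utp14b, a copy of the X-linked gene Utp14a that arose by reverse transcription, had few reads, with levels of 1.74, 0 and 0.685 RPKM among controls, against 1.89 and 0.847 RPKM in MycKO. It shares exon bases with Acsl3 on the same strand, so its reads cannot be assigned with certainty. Exons of Rrp7a, Tsr1, Dkc1, Nop56, Bop1, Gnl3, Rrp8 and Mybbp1a overlap a listed gene on the opposite strand (GENCODE vM21), and no source used here says whether the counting used strand.

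Large subunit factors had the lowest median of the 5 role groups, at -0.04, with 10 of 16 lower. Of the 11190 genes tested, 4800 were lower. The sign of the large subunit median turned without MycKO 6, to 0.11. Gnl3, the nucleolar GTPase nucleostemin (Entrez 30877; chromosome 14, 31012433 to 31019131), was at 17.1, 12.05 and 15.2 RPKM in controls 1, 2 and 3, against 19.6 and 22.7 RPKM in MycKO 5 and 6. Both MycKO libraries lay above all controls, and the log2 fold change was 0.50 (SE 0.20; 95% interval 0.04 to 0.96), with an unadjusted p of 0.0362 and a limma adjusted p of 0.335. Nip7, a factor of late precursor processing, was at 13.8, 13.4 and 10.8 RPKM in controls, against 16.1 and 13.9 RPKM in MycKO, with MycKO 6 just over control 1. Wdr74 was at 20.2, 14.1 and 15.5 RPKM in controls, against 20.4 and 20.0 RPKM in MycKO, so control 1 lay between the MycKO libraries.

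Nop2, the methyltransferase of large subunit RNA (Entrez 110109; chromosome 6, 125131883 to 125144753), was the lowest of this role group and carried an E-box shown above. It was at 9.29, 15.4 and 9.52 RPKM in controls 1, 2 and 3, against 7.62 and 7.66 RPKM in MycKO 5 and 6. Both MycKO libraries lay below all controls, and control 2 stood far above the rest. The log2 fold change was -0.49 (SE 0.26; 95% interval -1.10 to 0.12), with a limma adjusted p of 0.52, and it was -0.27 without control 2.

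Pes1, Bop1 and Wdr12 form a single complex that processes large subunit precursors, and their groups overlapped in each case. Pes1 was the steadiest, at 24.5, 23.6 and 25.2 RPKM in controls, against 22.2 and 25.4 RPKM in MycKO (log2 fold change -0.04, 95% interval -0.37 to 0.29). Bop1 was at 18.4, 25.8 and 27.0 RPKM in controls, against 21.3 and 17.6 RPKM in MycKO (-0.26, and -0.43 to -0.13 without each library in turn). Wdr12 was at 3.56, 6.14 and 3.81 RPKM in controls, against 6.83 and 3.58 RPKM in MycKO (0.15), where control 2 and MycKO 5 were about equally high. Noc2l, a partner of early large subunit particles, was at 19.9, 26.6 and 20.3 RPKM in controls, against 16.8 and 20.2 RPKM in MycKO. Rrp1, with the highest level of the group, was at 73.1, 74.4 and 59.6 RPKM in controls, against 64.6 and 65.5 RPKM in MycKO, with both MycKO libraries inside the range of the controls.

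The multifunctional nucleolar proteins were abundant, and their log2 fold changes had the narrowest range of the 5 role groups, from -0.06 to 0.08. Npm1, the histone and ribosomal protein chaperone nucleophosmin (Entrez 18148; chromosome 11, 33152498 to 33164142), had the highest level of all 51 genes. It was at 253.3, 297.9 and 256.1 RPKM in controls 1, 2 and 3, against 289.2 and 232.1 RPKM in MycKO 5 and 6. The MycKO libraries bracketed controls 1 and 3, and the log2 fold change was -0.05 (95% interval -0.36 to 0.26). Npm1 has processed pseudogenes, so some of its reads may have been divided between copies. Nucleolin, Ncl (Entrez 17975; chromosome 1, 86344719 to 86359455), was at 66.6, 91.6 and 76.5 RPKM in controls, against 85.8 and 78.3 RPKM in MycKO (log2 fold change 0.08, 95% interval -0.27 to 0.43). Its values rest on a gene length of 8257 bases, worked out from reads and RPKM, and by reads it was above Npm1 in every library. The RNA helicase gene Ddx21 was at 54.4, 52.3 and 45.6 RPKM in controls, against 52.1 and 44.9 RPKM in MycKO (-0.06, 95% interval -0.38 to 0.25). Mybbp1a was at 21.5, 30.5 and 22.3 RPKM in controls, against 25.9 and 24.6 RPKM in MycKO (0.04).

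Libraries of the same genotype differed among themselves. On the log2(RPKM + 1) scale the range of the 3 controls had a median of 0.42 over the 51 genes, the gap between the MycKO libraries 0.26, and the size of the difference between genotype means 0.16. Over all genes tested these medians were 0.44, 0.25 and 0.20, and a difference of means is narrower by averaging than a range of single libraries. The gap between the MycKO libraries was larger than the difference between genotypes in 35 of 51 genes (68.63%), against 55.47% of all genes tested. The range of controls was larger than that difference in 42 of 51 genes (82.35%), against 75.12% of all genes tested. Control 2 was the highest control in 25 of 51 genes (36.97% of all genes tested), and MycKO 5 lay above MycKO 6 in 38 of 51 (49.91%). The summed level of the 51 genes was 1298, 1462 and 1315 RPKM in controls 1, 2 and 3, against 1491 and 1285 RPKM in MycKO 5 and 6.

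Markers of proliferating cells varied between the same libraries. All 18 were detected in every library, and their sum was 336.8, 614.6 and 330.7 RPKM in controls 1, 2 and 3, against 545.9 and 410.3 RPKM in MycKO 5 and 6. In MycKO 16 of the 18 were higher (57.1% of all genes tested), with a median log2 fold change of 0.29 (0.05 over all genes tested). The groups overlapped in every marker, and 0 passed the limma test (1.34% of all genes tested did). Control 2 was the highest control for 18 of 18 markers (36.97% of all genes tested), and MycKO 5 lay above MycKO 6 for 18 of 18 (49.91%). The same counts for the nucleolar genes were the 25 of 51 and 38 of 51 given above. The part of proliferating cells in the differences between libraries was not tested.

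**Figure D3:**
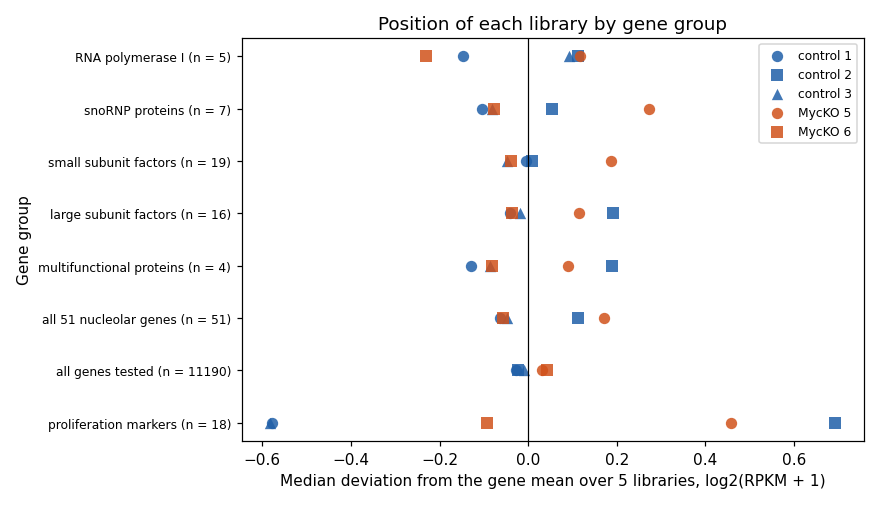
Median deviation of each library from the mean of the 5 libraries, on the log2(RPKM + 1) scale (x axis), for each gene group (y axis); blue points are controls and orange points MycKO. Over the 51 genes control 2 (0.11) and MycKO 5 (0.17) lie above the other 3 libraries (-0.06 to -0.05), and the same 2 libraries stand highest for proliferation markers.

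Other genes of ribosome synthesis were compared in the same way. Of 119 listed genes, 116 were measured, and 0 passed the limma test in either direction, against 1.34% of all genes tested. At an unadjusted limma p under 0.05 there were 2, against 1475 of the 11190 genes tested. In MycKO 52 were higher and 64 lower, where 57.1% of all genes tested were higher. The median log2 fold change of the 116 genes was -0.02. By group, the medians were 0.05 for 10 further subunits and partners of RNA polymerase I and 0.28 for 10 other snoRNP proteins and assembly factors. They were -0.05 for 35 other small subunit factors and -0.02 for 47 other large subunit factors. For 14 proteins of the RNA exosome, which trims precursor ends, the median was -0.06. The smallest p belonged to Sdad1, a large subunit factor, which was chosen after its values were seen. It was at 5.85, 5.89 and 5.78 RPKM in controls 1, 2 and 3, against 10.3 and 9.66 RPKM in MycKO 5 and 6. Both MycKO libraries lay well above all controls, which were nearly identical, and the log2 fold change of 0.68 had a limma adjusted p of 0.218. The second, also chosen after its values were seen, was Znrd1, a small subunit of RNA polymerase I listed here under its older symbol. It was at 47.0, 57.3 and 60.6 RPKM in controls, against 25.6 and 46.5 RPKM in MycKO, where MycKO 5 alone stood apart (log2 fold change -0.64, limma adjusted p = 0.318).

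**Figure D4:**
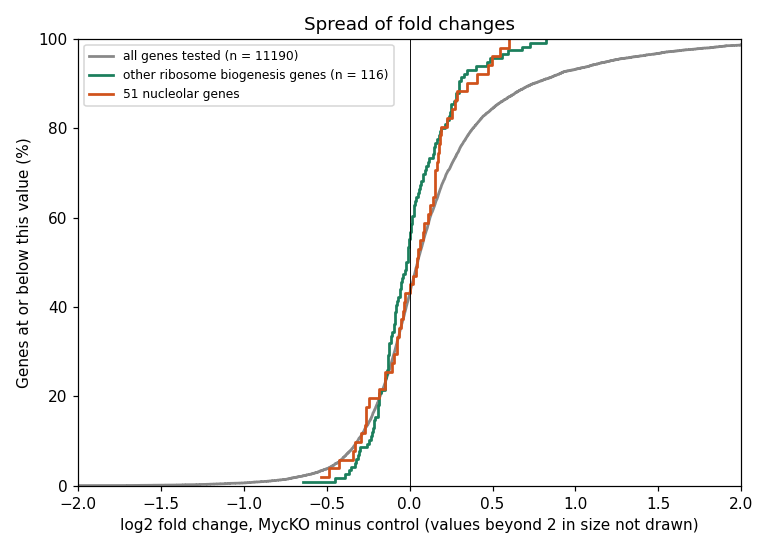
Percentage of genes (y axis) at or below each log2 fold change, MycKO minus control (x axis), for all 11190 genes tested (grey), 116 other ribosome synthesis genes (green) and the 51 nucleolar genes (orange). The orange line crosses 0 near the grey line, at medians of 0.04 and 0.05, and ends at 0.60, while the grey line runs on.

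Genes with and without the E-box were set side by side. The 9 genes with CACGTG had a median log2 fold change of -0.04, from -0.49 to 0.47, and the 34 with a promoter but no CACGTG had a median of 0.10, from -0.54 to 0.60. Over all genes tested the medians were 0.05 with the motif and 0.05 without. CACGTG stood in 4 of the 5 genes with both MycKO libraries below all controls, in 0 of the 4 with both above and a matched promoter, and in 5 of the other 34. This split was looked at after the values were seen, and the groups of Utp20, Wdr43 and Rrp7a were narrowly separated. Over all genes tested CACGTG stood in 11.3% of genes with both MycKO libraries below, 11.4% of those with both above and 12.2% of the rest. The related motif CACGCG stood in 1 of the 5 genes with both below, 2 of the 4 with both above and 13 of the other 34. Its shares over all genes tested were 20.4%, 17.3% and 20.6% in the same order.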

How the data were processed

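RNA of 3 control and 2 MycKO samples was analysed from 1 deposited table. Per the submitters' processing notes, TopHat and edgeR were used, named without a role, and the build was mm10. No source used here gives versions, annotation or the counting tool. Per the labels, libraries were stranded single-read libraries. The deposited table holds 1 RPKM per gene and sample. It also holds the authors' group means of normalized signal and the authors' fold change, as a ratio and as log2. The authors' p-values, raw and adjusted, come from a test it does not name. The header does not name RPKM: that unit was read from the values, because RPKM and group means together gave whole reads for 100% of values within 0.001 of a read. Those reads and the gene lengths behind them served for depth, limma-voom, the filter by CPM and the simulated data. They also gave the reads and the gene length printed for single genes. The median over the 51 genes was 218 reads in MycKO 5 (counting error 6.77%) and 506 in MycKO 6 (4.45%).

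RPKM was analysed as log2(RPKM + 1), which understates changes of low genes, in the 11190 genes that reached 1 RPKM in 2 or more samples. limma 3.58.1 in R 4.3.3 was fitted over all 5 samples with a variance trend, two-sided, with Benjamini-Hochberg adjustment over all genes tested. The procedure was tested on simulated data. Genes, roles and lists were chosen with earlier results of these data known, so no list was tested. A further list of cell type markers is not reported here. Genes named with full statistics were, in each role group, the 2 with the smallest p, the largest rise, the largest fall and the highest control level; others were named as members or after their values were seen. Coordinates and promoters are from RefSeq on GRCm38.p6 (51 of 51 and 43 of 51 matched), and exon overlaps from GENCODE vM21. The alternatives were another scaling (upper-quartile or median-of-ratios), another pseudocount (0.1), another filter (5 CPM in 2 or more samples) or none, limma-voom, the authors' table, and leaving out each sample. Plots were made in Python 3.11.15 (matplotlib 3.10.9).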

Additional observations from a re-analysis of the deposited data

How the results depend on the processing

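In limma, limma-voom and the authors' deposited table, 0 of the 51 nucleolar genes and 0 of the other ribosome synthesis genes passed. The same held under every scaling, filter, pseudocount and omission of a control tried. In these fits 2 to 4 of the 51 had an unadjusted p under 0.05. In the main limma fit it was 4, where 1475 of the 11190 genes tested did. This share was not counted for the other fits. The number of genes called over the whole table was 150, and it was 80 with a pseudocount of 0.1, 232 in limma-voom, 442 in the authors' deposited table and 0 to 215 without each library (0 without MycKO 5 or MycKO 6); the cause was not tested. Leaving out 1 library moved the median log2 fold change of RNA polymerase I subunits to between -0.27 and 0.083, of snoRNP proteins to 0.023 to 0.32, of small subunit factors to 0.025 to 0.14, of large subunit factors to -0.085 to 0.11, and of all 51 genes to -0.02 to 0.14.

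The alternatives were run for 36 named genes, Myc included, and of these 14 turned sign under at least 1 of them. Gar1 (0.00) was at -0.046 with median-of-ratios scaling, -0.037 with upper-quartile scaling, -0.15 in limma-voom and -0.051 in the authors' table. Polr1d was at -0.030, -0.021, -0.11 and -0.0036 in the same order, and Mybbp1a at -0.0082 with median-of-ratios scaling and -0.033 in the authors' table. Utp3 was at -0.0042 in the authors' table and Wdr12 at -0.073 in limma-voom. Without 1 library the ranges that crossed 0 among these 36 were -0.17 to 0.041 (Ddx21), -0.35 to 0.061 (Fbl), -0.29 to 0.30 (Gar1), -0.046 to 0.20 (Mybbp1a), -0.030 to 0.20 (Ncl), -0.16 to 0.32 (Nop56), -0.21 to 0.11 (Npm1), -0.13 to 0.053 (Pes1), -0.29 to 0.080 (Polr1a), -0.021 to 0.37 (Polr1b), -0.15 to 0.42 (Polr1c), -0.33 to 0.38 (Polr1d), -0.015 to 0.15 (Utp3) and -0.23 to 0.54 (Wdr12). Ranges that kept their sign but moved by over 1.5 times were 0.13 to 0.33 (Nip7), -0.37 to -0.12 (Noc2l), 0.023 to 0.48 (Nolc1), 0.042 to 0.32 (Nop58), -0.18 to -0.021 (Rrp1), 0.22 to 0.60 (Rrp12), -0.48 to -0.10 (Rrp7a), 0.36 to 0.74 (Utp11l), -0.51 to -0.17 (Utp20), 0.18 to 0.43 (Wdr74) and -1.06 to -0.23 (Znrd1), beside those of Bop1, Dkc1, Nop2 and Polr1e given above. No paired analysis was possible because the groups share no replicate numbers. The depth of MycKO 5 and the 2 MycKO libraries limit all intervals.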

Other observations

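Snord19, a small nucleolar RNA inside the RefSeq span of Gnl3, was also listed in the deposited table. Snord19 was at 21, 0 and 15 reads in controls 1, 2 and 3 and at 0 in both MycKO libraries, and its limma adjusted p was 0.375. Control 2, which was sequenced most deeply, was also at 0, so its groups overlapped.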
